A study of Mus musculus with 39 samples.

Results

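Nprl3 was followed as a target of chromatin interactions. The gene spans chr11:32125628-32167707 of mouse build mm9 on the minus strand, so that its promoter faces the α-globin genes and its 3′ end points away from them. It is cut by DpnII into 100 fragments whose midpoint lies in the gene, of 295450 fragments on chromosome 11, and it is 1 of 2953 genes annotated there. The fragments have a median length of 290.5 bp (5 to 2201 bp) and cover 41.433 kb. Their interactions were read from these viewpoints at the α-globin locus: the promoters of Hba-1 and Hba-2 (averaged as Hba1/2), the enhancers R1 and R2 (averaged as R1/R2), the CTCF sites HS39_5, CTCF_44 and CTCF_48 (the latter pair averaged as CTCF_44/48), and the fragments A, C and CX of the FISH probes. E and EX, viewpoints of the FISH probe panel inside Nprl3, were not used as viewpoints here, and the fragments around them were left out in that panel. Fragments within 1 kb of a viewpoint of the same capture panel were left out, since they ligate to the viewpoint at any rate. This left 86 Nprl3 fragments in the R1/R2 panel, 92 in the time course from Hba1/2 and HS39_5, 83 in the panel of A, C and CX, 78 in the DKO panel and all 100 in the DRB panel.

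The interactions were measured by NG Capture-C, in which chosen fragments, the viewpoints, are pulled out of a chromosome conformation capture library and the fragments ligated to them are counted. Mouse foetal liver cells (MFL), labelled C57Bl6, were expanded ex vivo, depleted of Ter119+ cells, sorted for CD44 and size, and sampled at 0 h or after 30 h in differentiation medium, with BrdU present at the end of culture according to the labels. They were compared with E14 embryonic stem cells (mES), labelled 129/Ola, so that cell type and strain cannot be told apart. The genotypes were WT, DKO with the regulatory regions R1 and R2 deleted (homozygous), and AMKO with Hba1 and Hba2 deleted, all in MFL cells at 30 h. WT cells at 30 h were further given DMSO or DRB, an inhibitor of transcript elongation by RNA polymerase II, for 3 h, or harvested untreated. Each group had 3 biological replicates, except AMKO and its WT control and the untreated, DMSO and DRB samples, which had 1 library each. For the MFL libraries captured from R1/R2, the sample description gave 30 h while the time field gave 0 h, and 30 h was used.

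Nprl3 encodes a subunit of GATOR1, the complex that restrains mTORC1 when amino acids are scarce, and it is expressed in most cell types. Its introns hold enhancers of the α-globin genes, which lie on the far side of its promoter and are switched on in the erythroid lineage. The gene is therefore both a neighbour of the globin genes and the DNA that carries their regulatory elements, and CTCF sites inside it and beyond the globin genes flank the region in which these elements act.

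The sequences that the results turn on are the enhancers and the CTCF site inside the gene and the promoter of the gene itself. R2 and R1 are intronic, and their fragments begin 15.826 and 21.141 kb from the promoter end of Nprl3. A window of at most 300 bases of each is given on the plus strand of mm9, with capitals for matches on either strand to AGATAA, the letters bound by GATA factors, where the first letter may also be T and the last also G. HS39_5 is the whole DpnII fragment, 30.283 kb from the promoter end, with capitals for GGGGGC, a run inside many CTCF sites; 107 of its 247 bases are coding exon. The promoter is the 250 bases before the start of Nprl3, from RefSeq on GRCm38.p6, chr11:32267708-32267957, minus strand, and it matched mm9 exactly at chr11:32167708-32167957.
R2, chr11:32151085-32151384: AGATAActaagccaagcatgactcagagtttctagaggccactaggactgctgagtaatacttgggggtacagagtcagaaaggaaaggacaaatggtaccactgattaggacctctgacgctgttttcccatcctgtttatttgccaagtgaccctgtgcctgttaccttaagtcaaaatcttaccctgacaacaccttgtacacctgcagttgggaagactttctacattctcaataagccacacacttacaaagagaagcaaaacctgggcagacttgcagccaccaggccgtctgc
R1, chr11:32145757-32146056: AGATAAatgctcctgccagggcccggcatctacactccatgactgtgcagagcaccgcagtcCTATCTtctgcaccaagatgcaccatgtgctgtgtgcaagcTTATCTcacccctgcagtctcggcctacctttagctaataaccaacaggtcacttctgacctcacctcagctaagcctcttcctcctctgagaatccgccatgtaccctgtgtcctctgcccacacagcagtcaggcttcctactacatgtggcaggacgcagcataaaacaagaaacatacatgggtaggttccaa
HS39_5, chr11:32137178-32137424: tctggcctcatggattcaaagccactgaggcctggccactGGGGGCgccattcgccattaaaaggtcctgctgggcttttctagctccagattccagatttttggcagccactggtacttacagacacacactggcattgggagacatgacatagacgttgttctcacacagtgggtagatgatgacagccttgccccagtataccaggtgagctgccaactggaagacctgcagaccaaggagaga
Nprl3 promoter: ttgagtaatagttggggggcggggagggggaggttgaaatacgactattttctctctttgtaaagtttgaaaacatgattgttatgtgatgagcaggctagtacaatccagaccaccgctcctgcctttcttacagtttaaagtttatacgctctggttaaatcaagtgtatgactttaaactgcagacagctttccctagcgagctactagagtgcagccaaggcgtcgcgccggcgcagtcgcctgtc

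The R1 window held 3 matches to the GATA letters, the R2 window 1 and the Nprl3 promoter 0. The windows were placed to hold as many matches as their fragment allowed, and the whole R1 fragment held 4. For comparison, 46.1% of 395807 windows of 300 bases laid end to end over chromosome 11 held at least 1 match and 3.78% held at least 3, while 26.5% of 32851 RefSeq promoters did so at least once. GGGGGC stood in 8.35% of windows as long as the HS39_5 fragment. The promoter had 11 CpG and 47.2% G+C. A match gives the letters only.

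In the 116 of 118 viewpoint columns of the 39 samples for which whole reads were used, reporter reads ranged from 2287 to 188599 (median 20720.5), and 37 to 11982 of them fell on kept Nprl3 fragments. Values are given as interactions per 100000 interactions of the viewpoint within chromosome 11 (cis), and as a level where they are divided by the kept fragment length in kb. In the DKO libraries, the R2 fragment was seen by 0 to 3 reads per viewpoint column (6 in all over 15 columns), against 22 to 237 in WT (1543 in all). The R1 fragment, of 1288 bp, kept 12 to 52 reads in DKO against 32 to 189 in WT, so it was not empty. In AMKO, R1 and R2 had 332 and 501 reads between Hba-1 and Hba-2, against 2162 and 3578 in WT.

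The gene was read in 42 steps of 1 kb from its promoter end and in 4 stretches bounded by the elements inside it: a promoter stretch of 15.826 kb up to R2, an enhancer stretch of 6.603 kb from R2 to R1, a middle stretch of 7.854 kb from R1 to HS39_5, and a 3′ stretch of 11.797 kb from HS39_5 on. These lengths are those of the map, and levels use the kept fragments only. The enhancer stretch thus held neither R1 nor R2 in the R1/R2 and DKO panels. In the panel of A, C and CX it held R1 but not R2, which lies within 1 kb of E. A ratio compared the level on the globin side of HS39_5 with the level 3′ of it. Both come from the same viewpoints and libraries, and for 1 viewpoint in 1 run the scaling cancels. Pairs of viewpoints and runs were scaled before they were averaged, so there the scaling weights the parts. Other scalings were not run for the ratio. With 3 against 3 replicates the two-sided exact permutation test cannot give a p below 0.1. Groups whose replicates did not overlap reach that smallest p and were therefore taken as different. Over the 9 comparisons with replicates, the whole-gene level differed in 7 (3 higher, 4 lower, adjusted p = 0.129) and the ratio in 8 (4 higher, 4 lower, adjusted p = 0.113). Of 36 comparisons of a stretch, 29 differed (12 higher, 17 lower, adjusted p = 0.124). None of these had an adjusted p under 0.05 in the permutation test. Of all 1 kb steps tested on chromosome 11, between 7.46% and 56.2% were apart, depending on the comparison. Levels, ratios and stretches of other genes were not counted in this way, so these counts are not set apart from the rest of the chromosome. Steps at an unadjusted p under 0.05 were counted in Nprl3 only, without a share over all steps.

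**Figure D1:**
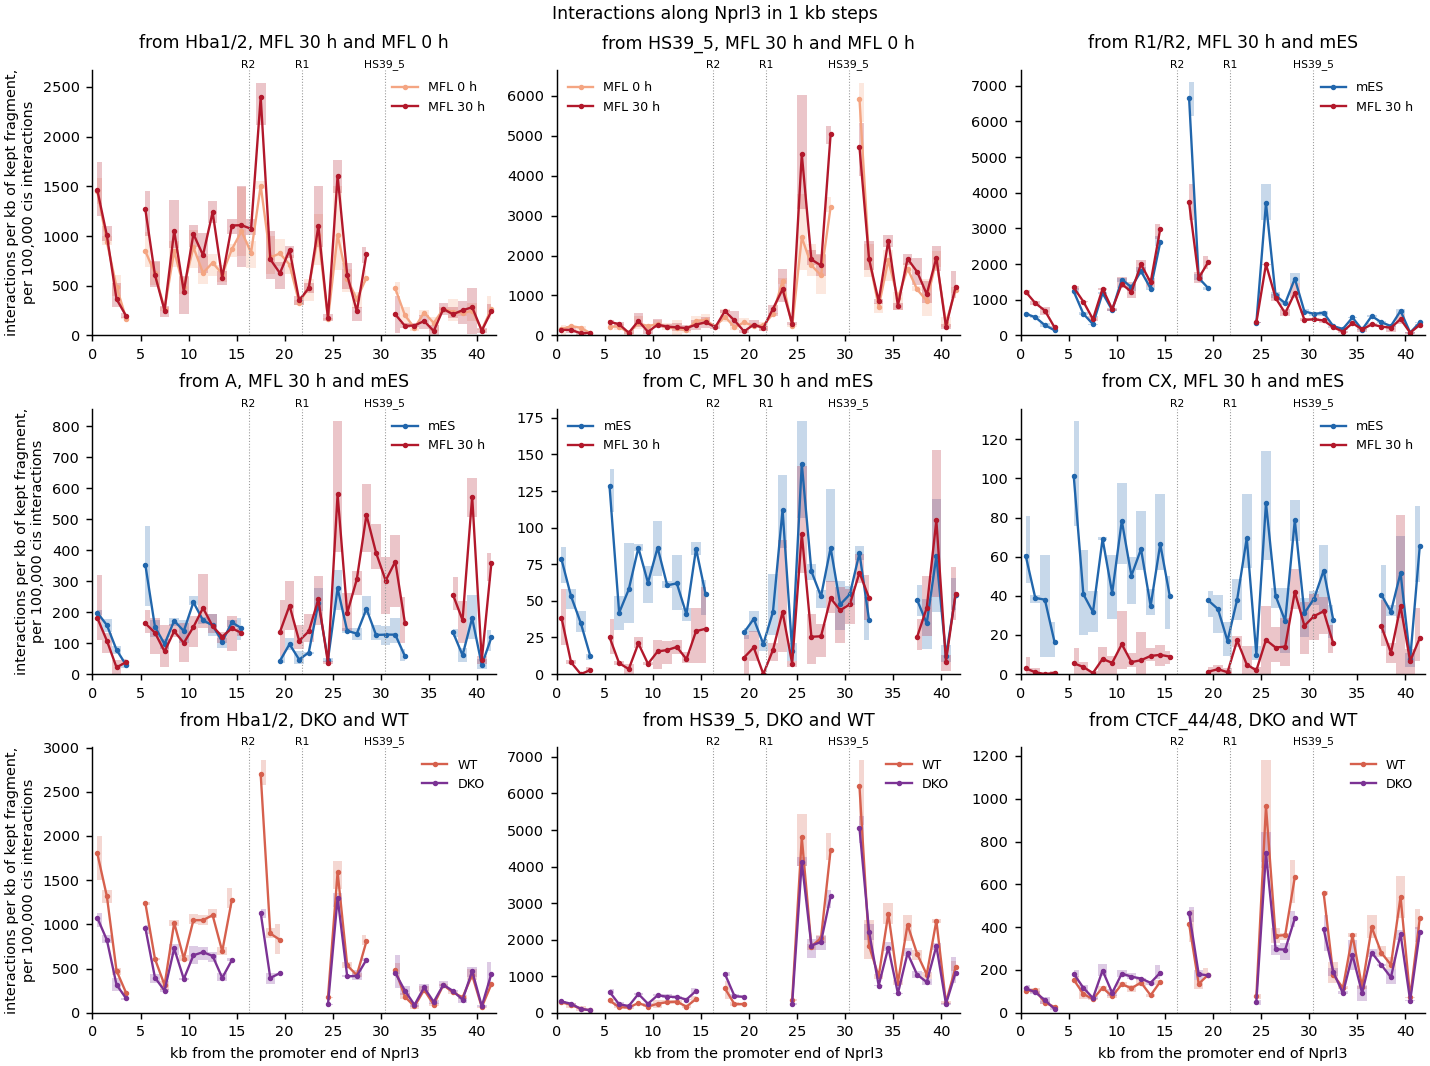
Interactions along Nprl3 from its promoter end (0 kb) to its 3′ end, in interactions per kb of kept fragment per 100000 cis interactions (linear axes from 0), for the 9 comparisons with replicates. Lines are means of 3 replicates and shading runs from the lowest to the highest replicate; steps with under 0.2 kb of kept fragments are left out, gaps lie around viewpoints, and dotted lines mark R2, R1 and HS39_5. From Hba1/2 the globin side stands above the 3′ stretch, from HS39_5 the order is turned, and from C and CX the MFL line lies lower on the promoter side of R1 than beyond it.

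The first question was how Nprl3 and the α-globin promoters met as erythroblasts differentiated. From Hba1/2, the whole gene had levels of 593, 641 and 560 per kb at 30 h and 538, 515 and 512 at 0 h, so that all 3 replicates at 30 h lay above those at 0 h (598 ± 40.8 against 522 ± 14.3, SD, n = 3, log2 difference 0.19, exact permutation p = 0.1). As deposited, per 100000 interactions over all chromosomes, the difference was 0.11 and the groups overlapped, and per 100000 interactions within 500 kb it was -0.03.

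By the main scaling, the groups were apart in the stretches on the globin side of R1 and overlapped in those beyond it. The stretches were not tested against each other. In the enhancer stretch the levels were 1082, 1022 and 902 at 30 h and 854, 752 and 782 at 0 h (log2 difference 0.33), and in the promoter stretch 733, 833 and 719 against 649, 699 and 632 (0.21). The groups did not overlap in either stretch, but they did within 500 kb (0.11 and -0.017) and, for the promoter stretch, as deposited (0.12). In the middle stretch (469 ± 45.3 against 427 ± 40.6, 0.14) and the 3′ stretch (152 ± 15.7 against 181 ± 30.9, -0.25) the groups overlapped. The log2 ratio of globin side to 3′ part was accordingly higher at 30 h, with 2.49, 2.33 and 2.12, than at 0 h, with 1.61, 2.08 and 1.80, a 4.97-fold against a 3.56-fold excess of the globin side. With 5 kb left out around viewpoints the difference was 0.26 and the groups overlapped (exact permutation p = 0.4).

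Between R1 and R2 lies the fragment E (chr11:32150268-32150622, 355 bp), in a step with a coding exon of Nprl3. From Hba1/2 it had 690, 846 and 639 interactions at 30 h and 292, 324 and 431 at 0 h. The groups were well apart, with 2.09 times the interactions at 30 h (log2 difference 1.06, exact permutation p = 0.1, adjusted p = 0.192 over the 46 fragment comparisons, as for every fragment whose groups did not overlap). Its step had the highest sum of interactions of Nprl3 from Hba1/2 at both times, at 2354 ± 237 and 1480 ± 37.4. The R2 fragment beside it differed less, by 0.33, and the groups overlapped when scaled within 500 kb (0.11) or when Hba-1 was used alone (0.26). The fragment over the Nprl3 promoter end (chr11:32167510-32168370, 861 bp) went the other way without a difference beyond the spread, with 342 ± 26.9 at 30 h and 420 ± 90.3 at 0 h.

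Over all steps of chromosome 11, limma called 0 of the 40 Nprl3 steps tested, as it called 0% of all steps, and 0 of the 40 had an unadjusted p under 0.05. With a spread that follows the mean, limma called 3, all higher at 30 h (2.08% of all steps). edgeR called 0 (1.11% of all steps) and DESeq2 1 (1.67%). Replicates were apart in 6 of 40 steps (5 higher, 1 lower), against 11.5% of all steps.

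From HS39_5, the CTCF site inside the gene, the level of the whole gene was 742, 748 and 703 at 30 h and 615, 631 and 688 at 0 h (log2 difference 0.18, no overlap, exact permutation p = 0.1). As deposited the difference was 0.07 and the groups overlapped. The middle stretch, next to the viewpoint, had levels of 1700, 1607 and 1500 at 30 h and 1073, 1205 and 1392 at 0 h (0.40). The groups overlapped as deposited (0.29) and with 5 kb left out (0.11). In it lay the step with the highest sum of interactions from HS39_5 (step 29, chr11:32138708-32139707, with an untranslated exon). It had 3657 ± 168 at 30 h and 2333 ± 160 at 0 h. The promoter stretch (186 ± 15.8 against 196 ± 15.8) and the enhancer stretch (291 ± 7.48 against 275 ± 56.4) overlapped. Within the enhancer stretch the R2 fragment was lower at 30 h, with 62.4, 56.8 and 155 interactions against 205, 250 and 213 (log2 difference -1.44), and the R1 fragment overlapped, with 241 ± 74.8 against 323 ± 164. The log2 ratio of globin side to 3′ part overlapped as well, with -1.35 ± 0.06 at 30 h and -1.49 ± 0.21 at 0 h (exact permutation p = 0.4, adjusted p = 0.4). limma and edgeR called 0 of 40 steps and DESeq2 0, with 0% of all steps for each, and limma gave 0 of 40 at an unadjusted p under 0.05; with a spread that follows the mean it called 1 (0.0785% of all steps). The replicates of both groups were apart in 8 of 40 steps, 4 in each direction, against 7.46% of all steps.

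The enhancers R1 and R2 read the gene from within, and the comparison of MFL with mES cells asked how their surroundings differ between a lineage that uses them and one that does not. The whole gene had levels of 749, 783 and 793 in MFL and 820, 760 and 801 in mES cells, which overlapped (log2 difference -0.03, exact permutation p = 0.4). It took 26.5% of cis interactions in MFL and 27.1% in mES cells. The direction depended on the scaling and on the viewpoint: -0.38 as deposited, 0.05 within 500 kb, -0.11 from R1 alone and 0.03 from R2 alone. Between 63.1% and 69.8% of the reporter reads were in cis in MFL and between 77.9% and 88.1% in mES cells, and the part of this in the level was not tested.

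Along the gene the groups differed in both directions. The promoter stretch was higher in MFL, with levels of 1066, 1073 and 1085 against 924, 870 and 928 (log2 difference 0.24; -0.12 as deposited). The other stretches were lower in MFL: the enhancer stretch at 2203 ± 219 against 2588 ± 61.0 (-0.24, with overlap within 500 kb at -0.15 and from R1 alone at 0.04), the middle stretch at 686 ± 31.4 against 889 ± 59.7 (-0.37) and the 3′ stretch at 244 ± 20.3 against 341 ± 14.4 (-0.49). The ratio, in which the scaling only weights R1 against R2, was 2.26, 2.08 and 2.14 on the log2 scale in MFL. In mES cells it was 1.61, 1.64 and 1.62. All 3 MFL replicates thus lay above all mES replicates, by 0.54 in the mean.

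The largest difference among the named fragments from R1/R2 was at the promoter of Nprl3. The promoter-end fragment had 408, 384 and 377 interactions in MFL and 145, 125 and 134 in mES cells, 2.89 times as many (log2 difference 1.53, exact permutation p = 0.1). It was higher under each scaling, by 1.19 as deposited and 1.62 within 500 kb. This fragment runs past the gene's end, and its midpoint is outside it, so it is not part of the level. The HS39_5 fragment (185 ± 17.1 in MFL, 204 ± 8.01 in mES) and the 3′-end fragment (109 ± 44.6 against 132 ± 3.32) overlapped.

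limma called 1 of 36 Nprl3 steps (13.5% of all steps), and 8 of 36 had an unadjusted p under 0.05. The step called was an intronic step at the promoter side (step 3, chr11:32164708-32165707), with 390 interactions in MFL and 161 in mES cells (log2 difference 1.27, SE 0.30, limma adjusted p = 0.0494; 0.0028 with a spread that follows the mean, 1.19e-13 by edgeR and 3.50e-12 by DESeq2). Its limma adjusted p was 0.0578 as deposited, 0.0625 with 5 kb left out and 0.481 without the filter on low values. Other fits called more steps: 16 by limma with a spread that follows the mean (7 higher, 9 lower, 22.1% of all steps), 16 by edgeR (14 higher, 2 lower, 28.3%) and 15 by DESeq2 (13 higher, 2 lower, 17%). The split followed the scaling, since edgeR with library totals in place of TMM factors gave 7 higher and 12 lower. Over all 847 steps the library totals gave 64 higher and 303 lower. The median log2 difference over Nprl3 steps was -0.11 with -1.35 over all 847 steps tested in limma, and 0.29 with -0.54 in edgeR with TMM factors. The groups did not overlap in 22 of 36 steps (8 higher, 14 lower), against 56.2% of all steps. Without a mES replicate, or without MFL replicate 2, limma called 0 of the 36 steps, and without MFL replicate 3 it called 2. Over all steps it called 13 to 15 without a mES replicate, 141 without MFL replicate 2 and 203 without MFL replicate 3. By interactions summed over a step, the highest was step 18 in mES cells (2226 ± 158, E itself being left out next to R2). In MFL it was step 14 (2296 ± 202), and both have a coding exon. Step 18 kept 0.334 kb and step 14 kept 1.545 kb, so these sums are not levels. Per kb, among steps with at least 0.2 kb kept, step 14 ranked no higher than 7 in any pair of viewpoint set and group.

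**Figure D2:**
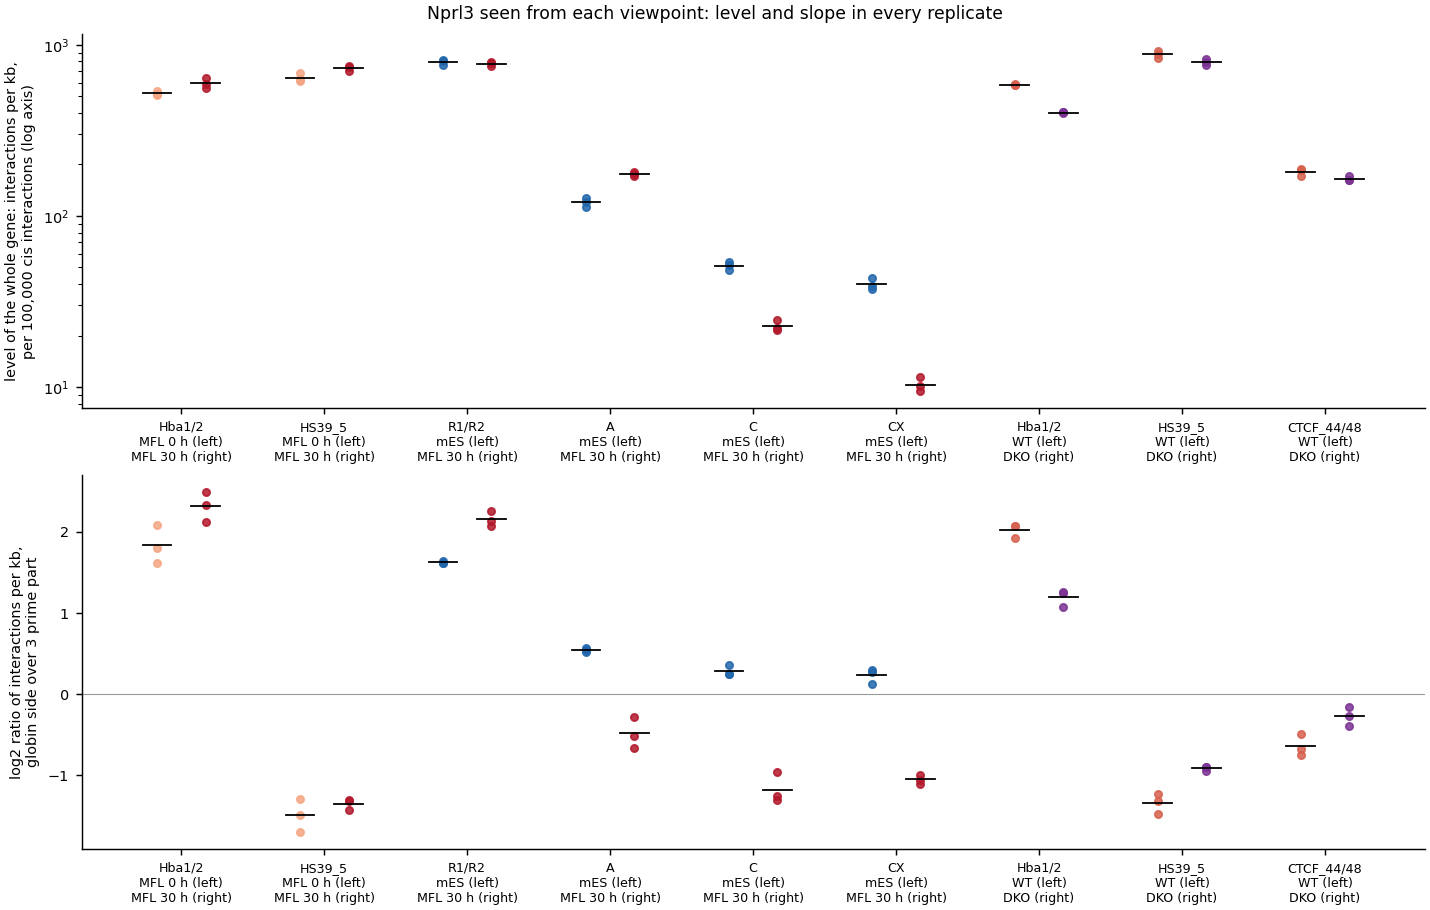
Level of Nprl3 (top, interactions per kb per 100000 cis interactions, log axis) and log2 ratio of the level on the globin side of HS39_5 to the level 3′ of it (bottom), from each viewpoint. Points are replicates and bars their means (n = 3). From A the level was higher in MFL than in mES cells, from C and CX it was lower, and from all of these the ratio changed sign, from above 0 in mES cells to below 0 in MFL.

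Seen from beyond the globin genes, Nprl3 met the viewpoints A, C and CX differently in the same MFL and mES libraries. A lies 37.271 kb from the promoter end of Nprl3, on the far side of Hba-2, C lies at 86.305 kb and CX at 112.05 kb. From A the gene had levels of 176, 182 and 170 in MFL and 128, 120 and 113 in mES cells, which did not overlap (log2 difference 0.55, exact permutation p = 0.1). From C the levels were 22.2, 24.7 and 21.5 in MFL against 51.5, 48.5 and 53.5 in mES cells (-1.17). From CX they were 9.44, 10.1 and 11.4 against 43.3, 37.6 and 39.1 (-1.96). The level was thus 1.46 times as high in MFL from A, and 0.446 and 0.258 times as high from C and CX. The change from A exceeded that from C by 1.71 and that from CX by 2.50 on the log2 scale, and the change from C exceeded that from CX by 0.79, each with groups that did not overlap (exact permutation p = 0.1, adjusted p = 0.14 over 7 such comparisons). The MFL libraries of this panel were shallower than the mES libraries, with 6642 to 38984 reads of a viewpoint in run 1 against 127933 to 188599, A of mES replicate 1 not counted. The cis share was lower as well, at 61.0% to 75.7% against 75.4% to 87.7% over both runs, and the part of either in these differences was not tested.

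From A, the higher level in MFL lay in the part of the gene away from the promoter. The enhancer stretch had levels of 148, 223 and 135 in MFL and 65.7, 58.2 and 90.1 in mES cells (log2 difference 1.23), the middle stretch 238 ± 18.1 against 119 ± 14.5 (1.01) and the 3′ stretch 234, 212 and 256 against 92.9, 93.4 and 87.9 (1.35). The promoter stretch overlapped, with 118 ± 13.5 against 147 ± 16.6 (-0.31). It did not overlap as deposited (-0.58), without MFL replicate 1 (-0.39) or without mES replicate 3 (-0.41). The R1 fragment (138 ± 57.4 against 60.3 ± 31.2), the HS39_5 fragment (110 ± 62.1 against 46.1 ± 15.0) and the 3′-end fragment (194 ± 114 against 51.9 ± 20.8) were higher in all 3 MFL replicates than in any mES replicate. The promoter-end fragment was lower, with 23.8, 8.25 and 8.54 interactions in MFL and 62.7, 43.7 and 63.1 in mES cells (log2 difference -2.23). The log2 ratio of globin side to 3′ part was -0.51, -0.28 and -0.66 in MFL and 0.57, 0.52 and 0.55 in mES cells, so that its sign differed between the groups in every replicate. By summed interactions, the highest step in mES cells was at 5 to 6 kb from the promoter end (step 6, 397 ± 146). In MFL it was just before HS39_5 (step 30, with 422, 578 and 406). Step 30 kept 1.197 kb. Per kb, among steps with at least 0.2 kb kept, it ranked no higher than 4 in any pair of viewpoint set and group.

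limma called 0 of 35 steps from A (2.58% of all steps), with 9 of 35 at an unadjusted p under 0.05; with a spread that follows the mean it called 11, of which 10 were higher in MFL (5.57% of all steps). Count tests were not run from A, since whole reads were not used in 1 of its libraries. Replicates were apart in 20 of 35 steps (16 higher, 4 lower), against 31.2% of all steps. The median log2 difference over the Nprl3 steps was 0.45, and the Nprl3 steps were higher in 22 and lower in 13.

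From C and CX, the level in MFL was furthest below mES cells on the promoter side of R1 and least so in the 3′ stretch. In the promoter stretch the levels from C were 16.2, 13.9 and 10.9 in MFL against 58.8, 58.6 and 59.2 in mES cells (log2 difference -2.13), and from CX 3.88, 5.55 and 6.03 against 55.4, 42.4 and 45.7 (-3.23). In the enhancer stretch they were 10.8 ± 4.77 against 30.3 ± 5.22 from C (-1.59). From CX the same stretch held 6 reads in all MFL libraries together, with 2, 0 and 4 per replicate, against 436 in mES cells, which was 15.7 times as many per cis read in mES cells (exact 95% counting interval 7.15 to 42.96). The middle stretch was lower from both, with log2 differences of -0.90 from C and -1.01 from CX, and the 3′ stretch was lower from CX (17.7 ± 1.24 against 34.6 ± 1.44, -0.96). From C the 3′ stretch overlapped, with 41.9 ± 6.08 in MFL and 43.8 ± 3.11 in mES cells. It was lower without overlap as deposited (-0.31) or without MFL replicate 2 (-0.18), and higher without overlap within 500 kb (0.37). The log2 ratio of globin side to 3′ part was -1.17 ± 0.19 in MFL and 0.29 ± 0.06 in mES cells from C, and -1.05 ± 0.06 and 0.23 ± 0.09 from CX, again with a change of sign in every replicate. With 5 kb left out around viewpoints, the ratio from CX differed by -0.36 and the groups overlapped (exact permutation p = 0.8).

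At the promoter-end fragment, neither C nor CX had a read in any MFL replicate, while mES cells had 17.0, 35.1 and 33.4 interactions from C and 14.5, 22.4 and 17.2 from CX. Set against a floor of 3 reads over all MFL libraries, which is 4.11 interactions for C and 3.38 for CX, the fragment was at least 6.90-fold lower in MFL from C and at least 7.12-fold lower from CX. The R1 fragment had 0 reads from C in MFL against 26.4 ± 5.03 interactions in mES cells, at least 5.84-fold lower by the same floor. The HS39_5 fragment overlapped from both viewpoints.

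limma called 7 of 34 steps from C and 7 of 33 from CX, all lower in MFL, where 4.68% and 3.31% of all steps were called. A step was tested where its mean over both groups reached 10, so that steps near 0 in MFL entered through mES cells and the filter favours lower calls. Without the filter limma called 0 of 36 steps from either, and 33 of 36 from C and 36 of 36 from CX had a value below 0. An unadjusted limma p under 0.05 was found with the filter in 18 of 34 steps from C and 25 of 33 from CX. Without the filter it was found in 17 and 27 of 36. The calls rested on each mES library: without mES replicate 1, 2 or 3, limma called 0, 1 and 1 steps from C and 0, 1 and 0 from CX. Over all steps it called 0, 2 and 1 from C and 0, 1 and 0 from CX. The step with the smallest adjusted p from C was the intronic one with R1 (step 22, chr11:32145708-32146707), at 0 in MFL and 26.4 in mES cells (limma adjusted p = 0.00235, 0.0768 by DESeq2). From CX it was an intronic step 7 to 8 kb from the promoter end (step 8, chr11:32159708-32160707), with 1 read in MFL and 159 in mES cells, 34.3 times as many per cis read in mES cells (exact 95% counting interval 6.07 to 1363; limma adjusted p = 0.0282). edgeR called 12 and 15 steps and DESeq2 4 and 13, all lower, with 12.1% and 10.2% of all steps for edgeR and 7.76% and 9.94% for DESeq2. Groups were apart in 18 of 34 steps from C and 24 of 33 from CX, all lower in MFL, against 40.6% and 40.4% of all steps. The median log2 difference over the Nprl3 steps was -1.22 from C and -2.53 from CX, and over all steps -0.54 and -0.57. By summed interactions, the highest step in mES cells was step 6 (145 ± 17.6 from C, 114 ± 30.2 from CX). In MFL it was the step with HS39_5 (65.6 ± 16.5 from C, 40.8 ± 16.3 from CX). The latter kept 1.377 kb. Per kb, among steps with at least 0.2 kb kept, it ranked no higher than 4 in any pair of viewpoint set and group.

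**Figure D3:**
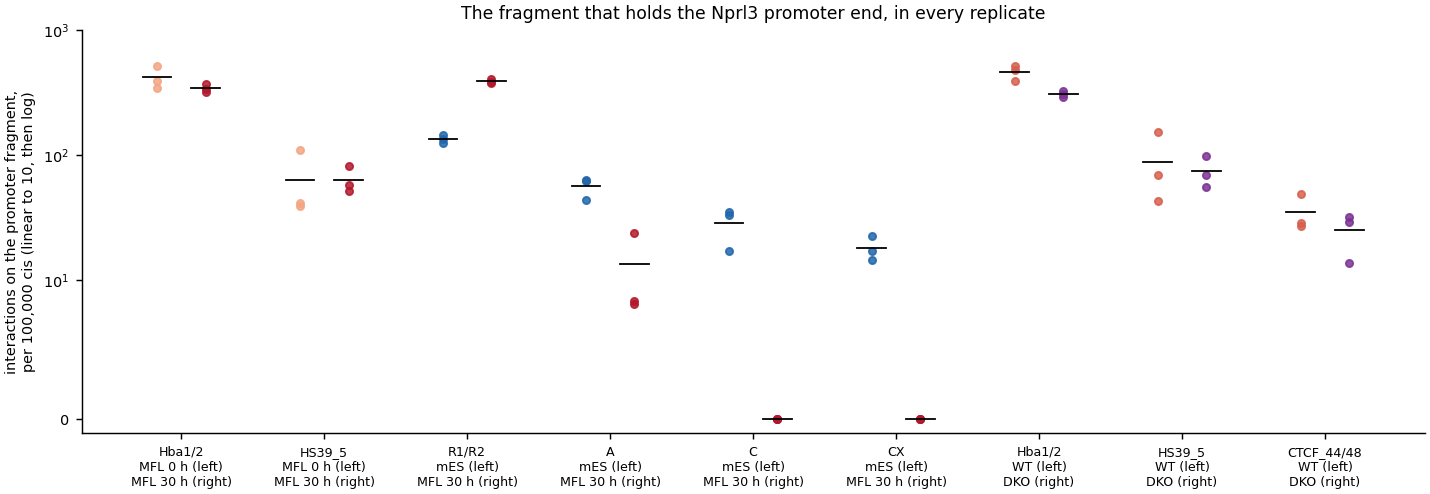
Interactions on the fragment with the Nprl3 promoter end, per 100000 cis interactions (axis linear up to 10 and logarithmic above), from each viewpoint. Points are replicates and bars their means (n = 3). From R1/R2 all MFL replicates lay above all mES replicates, from A, C and CX they lay below, and from C and CX they were at 0.

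The deletion of R1 and R2 was used to ask what the enhancers contribute to the contacts of the locus. For Nprl3 it took sequence out of the gene itself, and R1 and R2 with 1 kb on either side were left out in both genotypes. From Hba1/2, the rest of the gene had levels of 398, 405 and 405 in DKO and 583, 590 and 586 in WT cells, so that DKO was lower in 3 of 3 replicates (0.687-fold, log2 difference -0.54, exact permutation p = 0.1). The share of cis interactions was 12.6% against 18.3%. The enhancer stretch was the lowest relative to WT, with levels of 537, 584 and 579 against 1284, 1267 and 1212 (-1.15). The promoter stretch followed, with 519, 541 and 534 against 813, 836 and 841 (-0.64), then the middle stretch with 351 ± 11.7 against 454 ± 10.0 (-0.37). The 3′ stretch was slightly higher in DKO, with 227, 207 and 209 against 201, 185 and 183 (0.18; with overlap from Hba-2 alone at 0.14 and with 5 kb left out at -0.05). The ratio of globin side to 3′ part was 2.29 in DKO and 4.07 in WT cells, with log2 values of 1.08, 1.26 and 1.25 against 1.92, 2.07 and 2.08.

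The fragments with a name were read in the same way. The promoter-end fragment of Nprl3 had 328, 290 and 307 interactions from Hba1/2 in DKO and 520, 392 and 479 in WT cells (log2 difference -0.58; the groups overlapped when scaled within 500 kb, at -0.33). E, which lies within 1 kb of R2 and is not in the level, had 151, 157 and 131 against 508, 725 and 626 (-2.07). At EX, an 810 bp fragment 34.954 kb from the promoter end, the groups overlapped, with 99.5 ± 14.8 in DKO and 73.8 ± 11.7 in WT cells. Among the kept fragments, which leave out E and most of its step, step 2 had the highest summed interactions from Hba1/2 in both genotypes. It is an intronic step next to the promoter, at 1104 ± 66.9 in DKO and 1767 ± 93.6 in WT cells. Step 2 kept 1.343 kb. Per kb, among steps with at least 0.2 kb kept, it ranked no higher than 4 in any pair of viewpoint set and group.

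limma called 0 of 34 steps from Hba1/2 (0% of all steps), with 14 of 34 at an unadjusted p under 0.05. With a spread that follows the mean it called 18 (10.5% of all steps), edgeR 21 (10.5%) and DESeq2 21 (8.12%), and every one of these was lower in DKO. The groups did not overlap in 21 of 34 steps, all lower in DKO, against 27.3% of all steps. The median log2 difference over the Nprl3 steps was -0.45, and 0.40 over all 579.

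From HS39_5, the kept fragments of the DKO gene were higher on the enhancer and promoter side and lower near the viewpoint and beyond it. The enhancer stretch is without R1, E and R2 here. The promoter stretch had levels of 318, 305 and 318 in DKO and 164, 234 and 214 in WT cells (log2 difference 0.64), and the enhancer stretch 552, 596 and 583 against 297, 371 and 314 (0.82). The middle stretch was at 1513 ± 105 against 1780 ± 119 (-0.23) and the 3′ stretch at 1117, 1183 and 1210 against 1482, 1551 and 1459 (-0.36). None of these groups overlapped, but in the middle stretch they did as deposited (-0.30) and within 500 kb (-0.073). The whole gene came to 796 ± 32.8 in DKO and 881 ± 42.7 in WT cells (-0.14), a difference that was 0.02 when scaled within 500 kb. The log2 ratio was -0.90, -0.94 and -0.89 in DKO and -1.48, -1.32 and -1.22 in WT cells. EX (428 ± 14.9 against 667 ± 49.7, -0.64) and the 3′-end fragment (302, 193 and 253 against 418, 505 and 473, -0.92) were lower in DKO, and the promoter-end fragment overlapped (74.6 ± 22.4 against 88.6 ± 57.4). The left-out fragments did not go with the kept part of the enhancer stretch. R1 was lower in DKO without overlap (191 ± 14.6 against 257 ± 22.6, -0.43), and E overlapped (133 ± 25.5 against 165 ± 23.5, -0.33).

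From CTCF_44/48, which lie 53.211 and 56.616 kb outside the promoter end, the whole gene overlapped between DKO and WT cells, with 171, 161 and 163 against 170, 189 and 184 (log2 difference -0.13, exact permutation p = 0.2, adjusted p = 0.225). The promoter stretch was higher in DKO, at 120, 113 and 114 against 89.4, 94.7 and 92.6 (0.33). The middle stretch (239 ± 9.01 against 312 ± 37.0, -0.38) and the 3′ stretch (187 ± 14.7 against 240 ± 12.4, -0.36) were lower, the latter with overlap within 500 kb (-0.18). The enhancer stretch overlapped (0.21). It was higher in DKO without overlap as deposited (0.24), within 500 kb (0.40) and without WT replicate 2 (0.32), and lower without overlap with R1 and R2 kept (-0.29). The log2 ratio was -0.39, -0.27 and -0.15 in DKO and -0.75, -0.68 and -0.49 in WT cells, with overlap when R1 and R2 were kept (difference 0.27). The 3′-end fragment was lower in DKO (127 ± 11.7 against 184 ± 8.40). So were the left-out fragments E (54.7 ± 7.28 against 98.5 ± 30.8, -0.80) and R1 (65.3 ± 5.08 against 129 ± 7.99, -0.98), without overlap. The change of the whole gene from Hba1/2 lay below that from HS39_5 by 0.40 and below that from CTCF_44/48 by 0.41 on the log2 scale, without overlap (exact permutation p = 0.1, adjusted p = 0.14), while the changes from HS39_5 and CTCF_44/48 differed by 0.01 (exact permutation p = 1).

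limma called 0 of 34 steps from HS39_5 and 0 of 33 from CTCF_44/48 (0% of all steps for each), with 9 and 7 steps at an unadjusted p under 0.05. With a spread that follows the mean it called 14 (6 higher, 8 lower, 5.12% of all steps) and 8 (3 higher, 5 lower, 9.8%). edgeR called 15 (9 higher, 6 lower, 5.74%) and 7 (4 higher, 3 lower, 9.92%), and DESeq2 10 (5 in each direction, 2.48%) and 4 (2 in each direction, 5.53%). The groups did not overlap in 19 of 34 steps from HS39_5 (11 higher, 8 lower), against 23.7% of all steps, and in 19 of 33 from CTCF_44/48 (7 higher, 12 lower), against 25%.

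**Figure D4:**
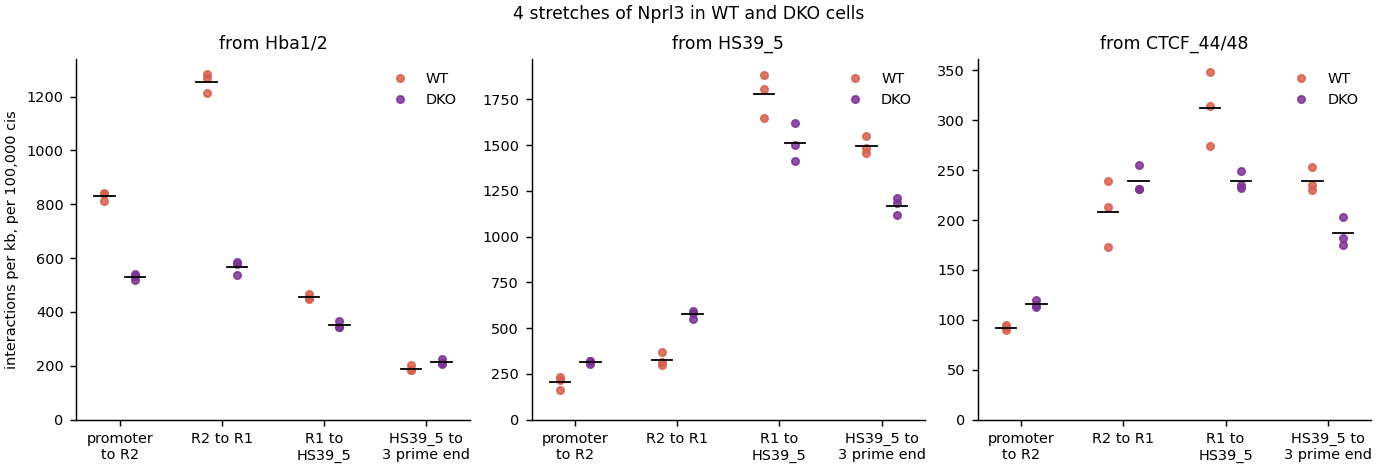
Level of the 4 stretches of Nprl3 in WT and DKO cells from Hba1/2, HS39_5 and CTCF_44/48, in interactions per kb per 100000 cis interactions (linear axes from 0). Points are replicates and bars their means (n = 3). From Hba1/2 the DKO replicates lay below WT in all stretches but the 3′ one, and from HS39_5 they lay above WT in the promoter and enhancer stretches and below in the others. The enhancer stretch is without R1, E and R2.

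The AMKO library, without the α-globin genes, was compared with 1 WT library from R1 and R2, so there is no replicate check and the intervals cover counting error only. From R2, Nprl3 took 23.6% of cis interactions in AMKO (95% Wilson interval 23.3 to 24.0) and 27.6% in WT (27.2 to 28.1). From R1 it took 21.3% (20.8 to 21.7) and 20.4% (19.9 to 21.0). The promoter stretch had the larger part of the difference from R2, with 16.3% (15.9 to 16.6) in AMKO against 20.6% (20.2 to 21.1) in WT. The 3′ stretch had a higher share of the cis total in AMKO from both enhancers. It had 4.28% (4.07 to 4.51) against 3.17% (2.95 to 3.40) from R1 and 2.45% (2.32 to 2.59) against 1.98% (1.84 to 2.14) from R2. The ratio of globin side to 3′ part was 2.88 in AMKO and 4.15 in WT. The deletion removes targets that count in the cis total. In WT, 2162 of 23806 kept cis reads from R1 and 3578 of 33768 from R2 lay between Hba-1 and Hba-2. In AMKO these were 332 of 33013 and 501 of 49142. With the globin genes left out of both totals the log2 difference of the pair's level moved from -0.10 to -0.24. The shares of single enhancers and stretches above still count these targets and were not recomputed, so their differences hold for this total only.

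DRB and DMSO were likewise compared in 1 library each. From Hba-1, Nprl3 took 19.7% of cis interactions with DRB (95% Wilson interval 18.9 to 20.6), 21.7% with DMSO (20.3 to 23.1) and, with 1172 of 5339 cis reads, a share of 20.9 to 23.1% in untreated cells. The log2 ratio of DRB to DMSO was -0.14 (counting interval -0.25 to -0.03) and that of DMSO to untreated -0.02 (-0.14 to 0.10). From Hba-2 the shares were 19.8% with DRB, without an interval since whole reads were not used there, 21.4% (19.9 to 23.0) with DMSO and 21.6% (20.4 to 22.8) untreated. By stretch, the interval of the log2 ratio of DRB to DMSO from Hba-1 left out 0 in the promoter stretch (-0.21, -0.38 to -0.05). It held 0 in the enhancer, middle and 3′ stretches. Against untreated cells, DRB held 0 in the promoter stretch too (-0.10, -0.25 to 0.04), but not over the whole gene (-0.16, -0.25 to -0.06). DMSO to untreated was 0.11 (-0.06 to 0.28) in the promoter stretch. The level of the pair was 520 per kb with DMSO and 477 with DRB. The SD between 3 replicates of WT cells at 30 h was 40.8 per kb in the time course and 3.75 per kb in the DKO panel.

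Among its neighbours, Nprl3 ranked first of 11 genes of the locus by level from R1/R2 in mES cells, at 793 per kb, with Hbq1a next at 382. R1 and R2 lie inside Nprl3 itself. In MFL it ranked 5 of 11, behind Hba-a1 (the highest at 1209). In AMKO it ranked 2 of 11, behind Hba-x at 696, against 5 of 11 in the WT control. Hba-a1 and Hba-a2, deleted in AMKO, count among the 11, so these ranks are not comparable. They were at 34.3 and 33.2 per kb in AMKO and 1139 and 1186 in WT. The level of Nprl3 was 656 per kb in AMKO and 703 in WT. From Hba1/2 it ranked 4 of 9 genes in every group, behind 3 globin genes. The next gene below it was at 167 per kb (Mpg) at 30 h, against 598 for Nprl3. From CX in MFL it was 9 of 11. Other genes of the locus differed between MFL and mES cells as well. From CX, Hba-x had 13.0 per kb in MFL against 76.2 in mES cells and Rhbdf1 23.1 against 41.8, while Il9r had 32.0 against 32.5. From A, Rhbdf1 had 254 against 118 and Snrnp25 223 against 113, while Hba-x had 124 against 294. Mpg, a DNA glycosylase gene, lies within the 3′ part of Nprl3 over 6.196 kb and shares 14 fragments with it, so their levels are not independent. Over 23 pairs of viewpoint set and group, the log2 levels most like those of Nprl3 among 13 genes within 500 kb were those of Mpg (Pearson r = 0.85), Snrnp25 (0.81) and Hba-x (0.80), and the least like those of Sh3pxd2b (-0.91). These points share viewpoints, libraries and the distance along the chromosome, and the correlations are given as a description.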

How the data were processed

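NG Capture-C libraries (DpnII, double capture) of 39 samples in 13 groups were used. The authors mapped reads to mm9 (Trim Galore and Bowtie are named in the submitters' processing notes, versions not given in the sources used here) and counted reporter reads per DpnII fragment with their own scripts. The deposited values have RPM as the nearest unit, but they are reads per 100000 reporter reads of a viewpoint over all chromosomes. In each column 100% of the values were whole multiples of what 1 read is worth, within a tolerance of 0.05. Whole reads were used in 116 of 118 columns, and not in A of 1 mES library and Hba-2 of the DRB library, where a separate test of the low values found no such step.

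A zone of 1 kb around each viewpoint of a panel was left out (in the DKO panel also around R1 and R2), and each viewpoint was scaled to 100000 kept interactions on chromosome 11. Sequencing runs of a replicate and the viewpoints of a pair were averaged. Both runs of a time course library differed by less than the sampling noise. Its replicates differed by 2.75 to 8.49 times the noise at 0 h and by 1.20 to 2.75 at 30 h (chi-square per degree of freedom, run 1). The runs of the A, C and CX panel differed by 2.0 to 3.62 times the noise, with 2.02 to 4.12 between MFL replicates and 3.05 to 5.92 between mES replicates. The runs of a library were counted as 1 replicate. Genes came from GENCODE vM1. For levels, ratios and fragments the exact permutation test (two-sided, 20 ways to arrange 3 and 3 samples) was used, with Benjamini-Hochberg adjustment within each family. Steps of 1 kb over chromosome 11 with a mean of at least 10 were tested by limma 3.58.1 on log2(value + 1), where folds understate the change of low steps, at an adjusted p of 0.05 over all steps. edgeR 4.0.16 (quasi-likelihood, TMM) and DESeq2 1.42.0, the tool the study names, were run on the recovered reads of run 1, summed over the viewpoints of a pair. Steps were named by the smallest adjusted p per comparison and direction, by the highest mean sum per viewpoint and group, and by their elements. This sum of interactions is not divided by the kept length, which differs between steps. Single libraries have 95% Wilson intervals, and intervals and floors cover counting error only, since reads carry no molecular identifiers. The tests across steps were also run on simulated data with a fixed spread between replicates, for R1/R2 and for Hba1/2 in DKO only. The outcome is not given here and lends no support to the calls. R 4.3.3 and Python 3.11.15 were used. Alternatives were another scaling, 5 kb left out, single viewpoints and runs, pseudocount 10, minimum 30 or none, 2 kb steps, a replicate block and each replicate left out; limma with a spread that follows the mean was added after seeing the data.

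The gene, its stretches and the lists were chosen with earlier results of these data known. Replicates are biological per the labels. Replicate numbers did not pair the samples.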

Additional observations from a re-analysis of the deposited data

How the results depend on the processing

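A count of 3 reads came to at most 65.9 interactions in a run of the MFL libraries of the A, C and CX panel and to at most 257.5 in run 2 of the time course. Of 45 recomputed ratios 41 kept their direction and their side of the threshold, as did 53 of 54 with a replicate left out, and so did 47 of 63 whole-gene levels and 207 of 237 stretches. The cause of the changes below was not tested. Values are log2 differences unless they are counts of Nprl3 steps called.

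Whole-gene level, as deposited: 0.11 (Hba1/2) and 0.074 (HS39_5) at 30 h against 0 h, -0.38 (R1/R2), -0.21 (HS39_5, DKO) and -0.15 (AMKO). Scaled within 500 kb it became -0.028 (Hba1/2, 30 h against 0 h), 0.051 (R1/R2), 0.016 (HS39_5, DKO) and 0.047 (CTCF_44/48, DKO). Single viewpoints gave -0.11 (R1) and 0.031 (R2) in MFL against mES cells, 0.056 (R1) and -0.23 (R2) in AMKO and -0.21 for CTCF_44 in DKO. With 5 kb left out, DKO gave -0.22 (HS39_5) and -0.16 (CTCF_44/48), with R1 and R2 kept -0.14 and -0.17, and with fragments spread over their bases CTCF_44/48 gave -0.14. Without the globin genes in the total, AMKO gave -0.24. Leaving out a replicate gave -0.065 to -0.0094 (R1/R2) and -0.18 to -0.10 (CTCF_44/48). The ratio gave 0.26 (Hba1/2, time), -0.19 (HS39_5, time) and -0.36 (CX) with 5 kb left out and 0.27 (CTCF_44/48, DKO) with R1 and R2 kept, all with overlapping groups, and 0.037 to 0.24 (HS39_5, time) with a replicate left out.

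The 3′ stretch from HS39_5 over time overlapped as deposited (0.0018), within 500 kb (0.063) and in run 1 (0.13) or run 2 (0.096) alone. Without replicate 3 of 0 h, its enhancer stretch was apart (0.25), as was its promoter stretch without replicate 3 of 30 h (-0.14). The 3′ stretch from Hba1/2 over time was apart within 500 kb (-0.47) and without replicate 2 of 0 h (-0.37). Stretches that changed sign were, within 500 kb, the promoter (-0.017) and middle (-0.088) stretches from Hba1/2 over time and the 3′ stretch from C (0.37). With 5 kb left out these were the 3′ stretch from Hba1/2 over time (0.079) and in DKO (-0.049). From HS39_5 over time these were the promoter stretch in run 2 alone (0.00094) and the enhancer stretch as deposited (-0.00606) or without replicate 1 of 0 h (-0.042). The promoter stretch from R1/R2 was -0.12 as deposited, the enhancer stretch 0.040 from R1 alone, the 3′ stretch from C 0.022 without MFL replicate 1, and the enhancer stretch from CTCF_44/48 in DKO -0.29 with R1 and R2 kept.

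Steps called moved most. limma with a spread that follows the mean called 3 (Hba1/2, time), 1 (HS39_5, time), 16 (R1/R2), 11 (A), 14 (C), 16 (CX), 18 (Hba1/2, DKO), 14 (HS39_5, DKO) and 8 (CTCF_44/48, DKO). edgeR with TMM factors called 16 (R1/R2), 12 (C), 15 (CX), 21, 15 and 7 (DKO in the same order), and with library totals 2 (Hba1/2, time), 19, 12, 17, 20, 17 and 7. Over all steps, edgeR with library totals called 17 of 720, 367 of 847, 149 of 1005 and 158 of 1026. In DKO it called 79 of 579, 46 of 645 and 86 of 796 over all steps. DESeq2 called 1 (Hba1/2, time), 15 (R1/R2), 4 (C), 13 (CX), 21, 10 and 4. A pseudocount of 10 gave 7 (R1/R2), 13 (C) and 18 (CX). Over all steps these were 310 of 847, 137 of 1005 and 112 of 1026. A minimum of 30 gave 12 (R1/R2), 13, 2 and 2 (DKO). Over all steps these were 116 of 282, 31 of 187, 8 of 220 and 43 of 328. Without the filter it was 0 for R1/R2, C and CX, with 302, 0 and 0 over all steps. Values as deposited gave 5, 13 and 18, with 193 of 692, 134 of 800 and 112 of 801 over all. For R1/R2, steps of 2 kb and 5 kb left out each gave 0, with 110 of 687 and 112 of 939 over all. R1 and R2 kept gave 3, 1 and 1 (DKO), with 4 of 566, 1 of 632 and 1 of 797 over all. Leaving out a replicate gave 0 to 2 (R1/R2), 0 to 10 (C) and 0 to 8 (CX). Over all steps it gave 13 to 203, 0 to 53 and 0 to 45. Count tests from A were not run, since whole reads were not used in 1 library.

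Step 8 from CX had a limma adjusted p of 0.158 without the filter and 0.0995 with the replicate block, and step 3 from R1/R2 of 0.158 with the block. A replicate block gave 0 steps called from R1/R2, 1 from C and 0 from CX, with 25, 3 and 0 over all steps. The samples share only a number: no comparison had every pair correlated above 0.1, and samples correlated best with their own number throughout only from R1/R2. With pairing, the smallest exact p of 3 pairs is 0.25.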

Other observations

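A step in the middle stretch with a coding exon (step 26, chr11:32141708-32142707), chosen after its values were seen, was among the 5 highest of the gene per kb in 21 of 23 pairs of viewpoint set and group, of the steps with at least 0.2 kb of kept fragments. Its level ran from 17.4 per kb from CX in MFL to 4802 per kb from HS39_5 in WT cells, and its median rank was 2. It rests on 2 fragments of 0.224 kb in all, and the part of their length in the level was not tested. Step 18, whose annotation holds a coding exon too, had the same median rank, over the 17 pairs in which it was kept, with 12 of them in the 5 highest.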
